A study of Drosophila melanogaster with 21 samples.

Results

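S2 cells, a Drosophila melanogaster line of embryonic, hemocyte-like origin, received double-stranded RNA directed at the part of the ush mRNA that all Ush isoforms share (dsUsh) and were harvested 4 days later. They were set against the same cells given a non-targeting double-stranded RNA for EGFP (dsEGFP). Both treatments had 3 libraries, made from independent transfections with a stranded mRNA kit, and the same table held 3 libraries of cells treated with double-stranded RNA against Mi-2 (dsMi-2). The study's methods state that transfections for depletion used S2[Cas9] cells, S2 cells that stably express the Cas9 nuclease, so this background is common to all groups. It is a single transformed line in culture, depleted acutely and not mutant. Of the 17737 genes listed, 9132 had a mean of at least 5 normalised counts over the 9 libraries and were compared between dsUsh and dsEGFP.

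Ush is a multi-zinc-finger protein of the Friend of GATA family. Proteins of this family do not act through DNA binding of their own but bind GATA transcription factors and recruit chromatin-modifying partners, among them the nucleosome remodelling and deacetylation complex (NuRD) with its ATPase Mi-2. In the fly, Ush and the GATA factors Serpent and Pannier control blood cell formation, and the phagocytic plasmatocyte is the blood cell that S2 cells most resemble. GATA factors of the same family also specify fat body and midgut in the embryo, so the comparison was read here over gene functions of all kinds.

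Between 21366051 and 26101822 reads fell on genes in dsUsh libraries and between 22279061 and 23259375 in dsEGFP libraries, with 5.89% to 6.41% and 7.03% to 9.05% of them on the 10 most abundant genes. Values are normalised read counts and are given in the order of replicates 1, 2 and 3. Differences are on the log2 scale of the count plus 1 and were tested with limma, with the replicate number as a block. A gene passed at an adjusted p under 0.01, the threshold the study used. Genes named below kept their call in all alternative analyses that gave a value, unless stated otherwise. About as many genes past the threshold (49.2%) as of all genes tested (51.6%) had annotated spans that overlap another gene, and for these the counts are uncertain because the use of strand in the counting is not given in the sources used here. Counts per gene in bulk RNA cannot tell a change per cell from a change in the mix of cells.

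The ush transcript itself had 4089, 3810.3 and 3341 normalised counts in dsUsh libraries, against 5276, 4789 and 3929 in dsEGFP libraries. Every dsUsh library was below the dsEGFP library of the same number, but the ranges of the groups overlapped. The log2 difference was -0.31 (SE 0.07, adjusted p = 0.00702, limma), which was lost in 15 of the 25 alternatives, with an adjusted p of 0.0978 when the replicate block was dropped. The ush span overlaps that of cbt. At the protein level, the paper reported that the major Ush polypeptides lost their Western blot signal after depletion of all isoforms. Protein was not measured in the data used here.

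In dsUsh libraries 2601 genes passed the threshold, 28.5% of those tested. Of these, 1589 (17.4% of the tested genes) were higher and 1012 (11.1%) were lower than in dsEGFP libraries. For 2437 of the 2601 the 3 dsUsh libraries did not overlap the 3 dsEGFP libraries, which held for 43.4% of all tested genes. The rises were larger than the falls. The median log2 difference was 1.31 among higher genes and -0.59 among lower genes, and 573 genes rose but 50 fell by at least 4-fold. At 16-fold the numbers were 251 and 1. Rises and falls are not on equal terms here, because a gene with few counts in dsEGFP libraries cannot show a large fall. The split depended on the scaling of the libraries, since higher genes were 61.1% of the calls as deposited, 51.5% after upper-quartile scaling and 37.6% after quantile normalisation, which moved the median of all genes by more than 0.1, to -0.20. No gene past the threshold passed in the opposite direction in any of the 25 alternatives. The number of lower genes was 398 without dsEGFP replicate 2, 645 without dsEGFP replicate 3, 619 without dsUsh replicate 2 and 611 without dsUsh replicate 3, and the number of higher genes was 1034 without dsEGFP replicate 2.

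**Figure D1:**
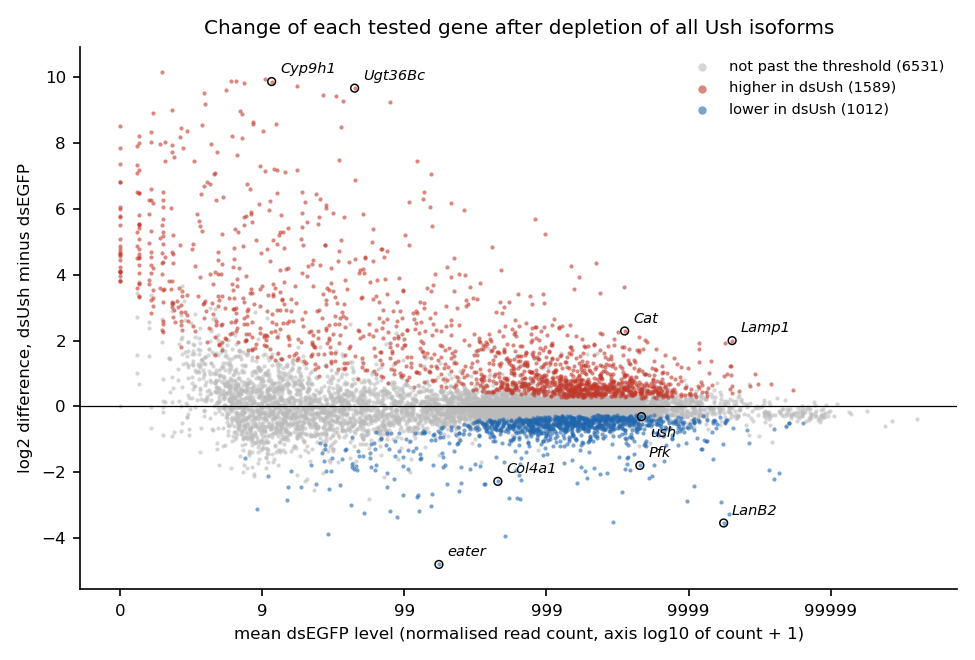
Each point is a tested gene, placed by its mean normalised count in dsEGFP libraries (x axis, log scale of the count plus 1) and its log2 difference, dsUsh minus dsEGFP (y axis). The 1589 higher genes reach far above 0 at low dsEGFP levels, whereas the 1012 lower genes lie closer below it and, except for 2 genes, at levels of at least 10 counts. Circles mark 9 genes of the text.

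The size of a rise went with how low the gene stood in control cells. Of the 1064 tested genes with a mean under 10 normalised counts in dsEGFP libraries, 294 were higher and 2 were lower, and 277 of the 294 rose at least 4-fold. Of the 3317 genes between 1000 and 10000 counts, 598 were higher and 570 lower, and of the 365 genes at 10000 counts or more, 36 were higher and 47 lower. The filter on the mean has a part in the first of these counts, because a gene that is silent in dsEGFP libraries can only enter through the other groups. Genes with at most 3 reads in every dsEGFP library numbered 202, of which 139 were higher, and they are given below as lower limits against a floor of 3 reads per library. The 3 dsUsh libraries were not alike in these rises. Among the 382 genes that rose at least 4-fold with a mean of at least 50, dsUsh replicate 2 was the highest library for 260, replicate 3 for 82 and replicate 1 for 40.

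The largest rises were of genes with diverse functions. CG17930 had 6833, 17784 and 7689 normalised counts in dsUsh libraries, against 14.5, 7.29 and 6.4 in dsEGFP libraries, a log2 difference of 9.96 (SE 0.39). Next came Eip63F-1, an ecdysone-induced calcium-binding protein, Dbi, an acyl-CoA-binding protein, and Cyp9h1, a cytochrome P450. The stress-induced DNase gene Sid had 3649, 5515 and 7390.0 normalised counts in dsUsh libraries, against 10.9, 7.29 and 1.07 in dsEGFP libraries (log2 difference 9.82, SE 0.57). For spheroide, a catalytically inactive relative of serine proteases in Toll signalling, dsUsh replicate 2 stood apart, with 7473, 62679.7 and 13397 in dsUsh libraries, against 21.7, 33.3 and 22.4 in dsEGFP libraries. CG16762 varied little, with 43299, 43360.0 and 57336 in dsUsh libraries, against 95, 68.8 and 69.3 in dsEGFP libraries (log2 difference 9.26, SE 0.16), and its span overlaps Svil. The adjusted p of the genes given here with values was at most 1.22e-05 (limma). CG4562 belonged to the same set, with 15498, 41978 and 17469 in dsUsh libraries, against 36.2, 28.1 and 32 in dsEGFP libraries.

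Of the genes without more than 3 reads in any dsEGFP library, the 5 with the largest fitted rise were CG9896, CG15126, CG13575, CG10131 and CG6271. CG15126 had 743, 2283 and 924 normalised counts in dsUsh libraries, against 1.81, 1.04 and 1.07 in dsEGFP libraries. It was at least 437-fold higher in dsUsh libraries, or at least 277-fold without dsUsh replicate 2, and CG13575 was higher by at least 283-fold. CG10131 had no read in any dsEGFP library and 353, 204.55 and 679 normalised counts in dsUsh libraries, at least 137-fold higher. CG9896 was at least 883-fold higher, or at least 422-fold without dsUsh replicate 2, and its span overlaps twi.

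The largest falls included genes of blood cells, extracellular matrix and transport. The transcript of eater, a phagocytosis receptor of plasmatocytes, had 4.34, 2.27 and 10.7 normalised counts in dsUsh libraries, against 229.8, 95.8 and 196 in dsEGFP libraries, a log2 difference of -4.80 (SE 0.35, adjusted p = 3.15e-05, limma). The gene is not steady in control cells, because dsEGFP libraries of the separate Ush-B experiment held between 2.7 and 588 normalised counts. CG1124 had 66, 12.5 and 30.9 in dsUsh libraries, against 539, 278 and 706 in dsEGFP libraries. MFS3, a transporter of the major facilitator superfamily, had 1175, 2516 and 1133 in dsUsh libraries, against 4130.4, 22964 and 31103 in dsEGFP libraries (log2 difference -3.26, SE 0.45, adjusted p = 0.000814, limma). dsEGFP replicate 1 stood far below the other control libraries for MFS3, but still above all dsUsh libraries. Lower as well were the tetraspanin Tsp96F, the C-type lectin lectin-28C and the Nimrod receptor NimC4, a receptor for apoptotic cells, with log2 differences of -3.02, -2.81 and -2.77.

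Of the 10 most abundant genes past the threshold, 6 were higher, among them the lysosomal membrane protein Lamp1 and the beta-integrin mys. The other 4 were lower. Lamp1 had 63698, 88742 and 91792 normalised counts in dsUsh libraries, against 20331, 17200.1 and 23286 in dsEGFP libraries, a log2 difference of 2.00 (SE 0.13, adjusted p = 2.30e-05, limma). mys had 59088, 57760.3 and 58136 in dsUsh libraries, against 33486, 29544 and 25352 in dsEGFP libraries (log2 difference 0.99, SE 0.10). The leucine-rich repeat receptor Gp150 rose with them, at 51864, 95997 and 61005 in dsUsh libraries, against 13244, 17276 and 23559 in dsEGFP libraries. The groups did not overlap for any of the 3 genes. The 4 lower genes differed by less than these 3, Rm62, a DEAD-box RNA helicase, by -0.59 (SE 0.13), the tubulin gene betaTub56D by -0.51 (SE 0.12), the cathepsin L protease gene Cp1 by -0.50 (SE 0.12) and CG15098 by -0.49 (SE 0.10). Rm62 had 31529.8, 30242 and 33660.2 in dsUsh libraries, against 37889, 46115 and 62475 in dsEGFP libraries. These calls were lost in 11, 13, 15 and 12 alternatives in that order.

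**Figure D2:**
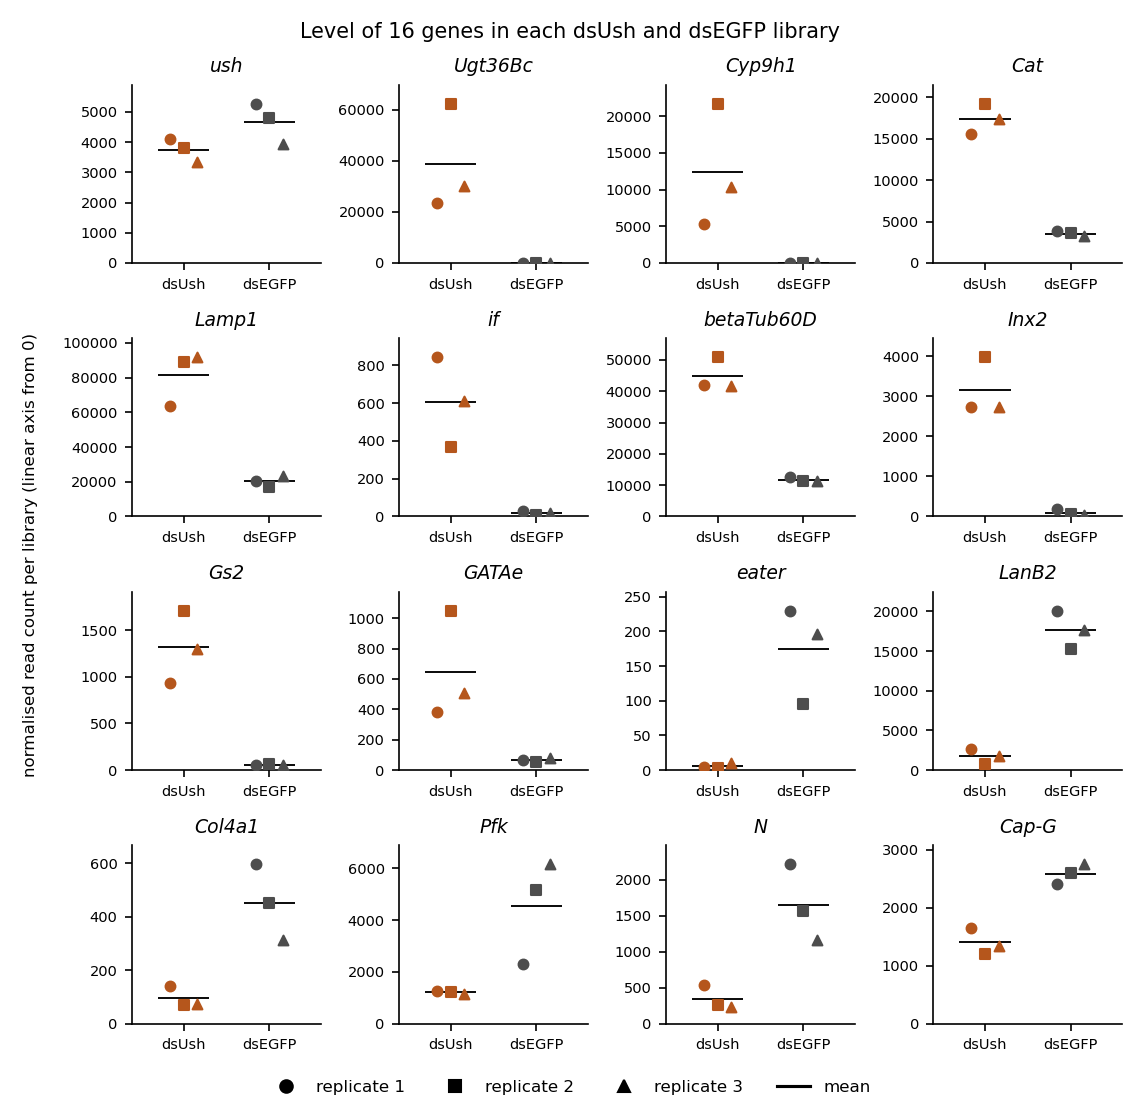
Normalised read counts of 16 genes (y axes, linear, each from 0) in the dsUsh libraries (left in each panel) and the dsEGFP libraries (right), with the replicate number as the symbol and the group mean as a line. For ush the ranges overlap, for the 9 genes from Ugt36Bc to GATAe all dsUsh libraries lie above, and for the 6 from eater to Cap-G all lie below the dsEGFP libraries.

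Gene lists by function were drawn up from general knowledge and are described by how many of their tested members passed in each direction, to be read against the 17.4% and 11.1% of all tested genes. The median log2 difference over all genes was -0.01.

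Detoxification genes rose in large numbers. Cytochromes P450 oxidise hormones, fatty acids and foreign compounds, and UDP-glycosyltransferases and carboxylesterases conjugate or cleave the products. Of the 86 cytochrome P450 genes listed, 54 were tested, and 28 were higher and 1 was lower, with a median log2 difference of 1.92, or 1.91 with silent genes at their lower limit. Silent genes in dsEGFP libraries made up 5 of the 28, and 23 of the remaining 48 tested members were higher. Of the 25 UDP-glycosyltransferase and esterase genes tested (35 listed), 16 were higher and 1 was lower, with a median of 1.67. Without their 4 silent members, 12 of 21 were higher. When a library was left out, the higher counts went as low as 19 cytochrome P450 genes and 11 UDP-glycosyltransferase and esterase genes. Ugt36Bc had 23663, 62443 and 30031 normalised counts in dsUsh libraries, against 56.1, 41.7 and 33.1 in dsEGFP libraries (log2 difference 9.66, SE 0.28, adjusted p = 1.27e-06, limma). Cyp9h1 had 5261, 21704 and 10369.5 in dsUsh libraries, against 10.9, 13.5 and 7.47 in dsEGFP libraries. In both genes dsUsh replicate 2 was the highest library and no library of the groups overlapped. Cyp6a21 and Cyp4p3 followed, with log2 differences of 5.97 (SE 0.49) and 5.87 (SE 0.39). The exception was Cyp4g1, which makes cuticular hydrocarbons, with 385, 158 and 234 in dsUsh libraries, against 652, 429 and 541 in dsEGFP libraries (log2 difference -1.13, adjusted p = 0.00145, limma), and its call was lost without the replicate block and without dsEGFP replicate 2. Jheh3, a juvenile hormone epoxide hydrolase, had 484, 842 and 632 in dsUsh libraries, against 12.7, 7.29 and 5.33 in dsEGFP libraries.

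Glutathione S-transferases, which couple glutathione to reactive compounds, went both ways. Of 33 tested (37 listed), 10 were higher and 2 lower, with a median of 0.33, and 6 were higher without dsEGFP replicate 2. The sigma-class gene GstS1 had 122, 139 and 83.2 normalised counts in dsUsh libraries, against 14.5, 18.8 and 6.4 in dsEGFP libraries (log2 difference 3.11, SE 0.24), whereas the epsilon-class gene GstE7 had 338, 367 and 309 in dsUsh libraries, against 690.4, 842 and 675 in dsEGFP libraries (log2 difference -1.12, SE 0.09). Of 26 antioxidant and redox genes tested (33 listed), 8 were higher and 2 lower. Catalase (Cat), the peroxisomal enzyme that breaks down hydrogen peroxide, had 15549, 19241 and 17406 in dsUsh libraries, against 3822, 3559.8 and 3269 in dsEGFP libraries (2.29, SE 0.09, adjusted p = 2.85e-06, limma). The extracellular superoxide dismutase Sod3 had 201, 147 and 209 in dsUsh libraries, against 19.9, 11.5 and 8.53 in dsEGFP libraries. Grx1 and the methionine sulfoxide reductase Eip71CD rose by 2.02 and 1.43 on the log2 scale, whereas Sesn, the sestrin gene, was lower (-1.06, SE 0.11).

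**Figure D3:**
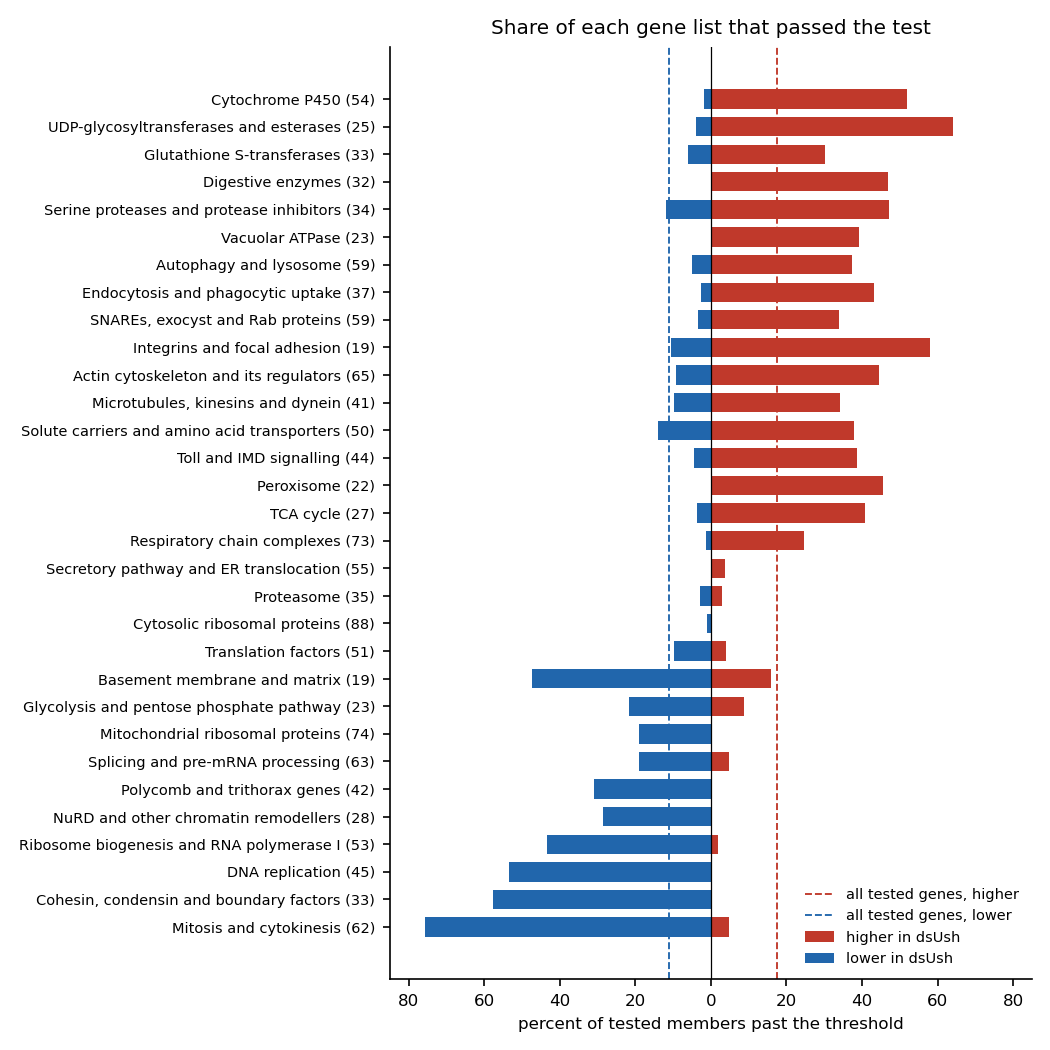
Percent of the tested members of 31 gene lists (number tested in parentheses) that passed the threshold, to the right when higher and to the left when lower in dsUsh libraries. Dashed lines mark the 17.4% and 11.1% of all tested genes. Detoxification, endosomal and adhesion lists reach past the right line, as does the digestive list, in which 11 of the 15 higher genes were silent in dsEGFP libraries, and chromosome, replication and mitosis lists past the left line.

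Most of the digestive enzyme genes that passed were silent in dsEGFP libraries. Of 80 digestive enzyme genes listed, 32 were tested, and 15 were higher and none was lower, with a median log2 difference of 1.33. However, 11 of the 15 had at most 3 reads in every dsEGFP library, so that their direction was set by the filter, and 4 of the other 20 were higher, a share near the 17.4% of all tested genes. Bace, an aspartic protease, had 579.9, 649 and 425 normalised counts in dsUsh libraries, against 0, 3.12 and 2.13 in dsEGFP libraries, and was at least 183-fold higher. Its span overlaps Dh31. The amylase genes Amy-p and Amy-d were at least 111-fold and 40.7-fold higher, and the serine protease genes Jon99Cii and Jon99Ciii at least 38.5-fold and 21.4-fold. Each of these pairs consists of near-identical copies, and the split of reads within a pair is uncertain. Both Jon99C calls were lost in 1 alternative, DESeq2 on the recovered reads with the block. Of 34 serine protease and inhibitor genes tested (82 listed), 16 were higher and 4 lower, with 8 of 26 higher once silent genes were set aside, and 10 of 34 higher without dsUsh replicate 2. dsUsh replicate 2 led these genes, as for Jon65Aiii, with 139.8, 969 and 114 in dsUsh libraries, against 2.71, 0 and 5.33 in dsEGFP libraries (adjusted p = 0.00103, limma). At these dsEGFP values Jon65Aiii, which is also on the digestive list, could pass the filter only through the other groups.

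Markers of other cell types differed as well, in both directions. Of 10 midgut markers listed, 5 were tested, and GATAe, Jon65Aiii, betaTry and Amy-p were higher. All of these but GATAe are also on the digestive list. Silent in dsEGFP libraries were betaTry and Amy-p, and Jon65Aiii had 2.71, 0 and 5.33 there, so that the filter set their direction. The summed level of the midgut markers was 932.7 to 2472 normalised counts in dsUsh libraries, against 78.1 to 112 in dsEGFP libraries. The midgut markers nub, alphaTry, mag and LManV stayed under a mean of 5. GATAe, the GATA factor of the midgut, had 381, 1050.0 and 506 in dsUsh libraries, against 63.3, 54.2 and 78.9 in dsEGFP libraries (log2 difference 3.16, SE 0.38). None of the 4 tested fat body markers passed in either direction, and the larval serum protein genes Lsp1alpha and Lsp2 had no read in the 6 libraries. Of 8 muscle markers tested, 2 were higher, wupA and sls, with 1373 to 1719 summed counts in dsUsh libraries, against 324 to 661 in dsEGFP libraries. With 3.62, 1.04 and 2.13 normalised counts in dsEGFP libraries, wupA could pass the filter only through the other groups. Of 4 glial markers tested 3 were higher, moody, Eaat1 and wrapper, with 3859 to 4926 summed counts in dsUsh libraries, against 1659 to 2240.3 in dsEGFP libraries. The larger sum lay mostly in wrapper, with 1565, 3042 and 1413 in dsUsh libraries, against 16.3, 16.7 and 7.47 in dsEGFP libraries. Gli did not pass and had 441, 263 and 303 in dsUsh libraries, against 549, 433 and 338 in dsEGFP libraries. The glial markers repo, gcm and alrm stayed under a mean of 5. Of 4 crystal cell markers 2 were higher, lz and peb, with 620.8 to 680 summed counts in dsUsh libraries, against 478 to 574 in dsEGFP libraries. The larger sum came with peb, at 214, 256 and 224 in dsUsh libraries, against 6.33, 13.5 and 6.4 in dsEGFP libraries. By contrast lz had 5.21, 55.7 and 5.34, against 0, 1.04 and 0, so that the filter set its direction. Notum did not pass and had 380, 350 and 394 in dsUsh libraries, against 451, 440 and 560 in dsEGFP libraries. The crystal cell markers PPO1 and PPO2 were not among the higher genes either. PPO1 had 14.8, 18.2 and 3.2 in dsUsh libraries, against 30.8, 14.6 and 7.47 in dsEGFP libraries. PPO2 had 6.08, 0 and 1.07 in dsUsh libraries, against 18.1, 9.38 and 0 in dsEGFP libraries. Of 7 germline markers bam, piwi and zpg were lower and none was higher, with 1394 to 1954 in dsUsh libraries, against 2458 to 3086 in dsEGFP libraries. The part of these markers in the results was not tested. Of 13 plasmatocyte markers tested, 3 were higher and 5 lower, with 85027 to 89821 summed counts in dsUsh libraries, against 70373 to 70594 in dsEGFP libraries. The larger sum lay mostly in crq, with 27516, 30121 and 31194 in dsUsh libraries, against 12970, 9285 and 13316 in dsEGFP libraries. The lower markers were srp, Hml, eater, Col4a1 and vkg. The plasmatocyte receptor gene NimC1 had at most 0.87 normalised counts in dsUsh libraries and 1.81 in dsEGFP libraries.

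Chitin and cuticle genes passed at shares near those of all tested genes. Of 196 listed, 52 were tested, and 8 (15.4%) were higher and 5 (9.62%) lower, beside 17.4% and 11.1% of all tested genes. Their median of 0.42 turned to -0.09 under quantile normalisation. Silent genes made up 4 of the 8. The higher count was 5 without dsEGFP replicate 2, and the lower count 2 or 3 when any library but dsUsh replicate 1 was left out. CS-2, a chitin synthase of the gut lining, had 4647, 2653 and 8566 normalised counts in dsUsh libraries, against 9.05, 13.5 and 11.7 in dsEGFP libraries, a log2 difference of 8.59 (SE 0.43, adjusted p = 7.20e-06, limma). The chitinase gene Cht2 had 1803, 1901 and 2199 in dsUsh libraries, against 9.05, 5.21 and 4.27 in dsEGFP libraries. The imaginal disc growth factors Idgf2 and Idgf6, secreted chitinase-like proteins without enzyme activity, were lower. Idgf6 had 13398, 12325 and 11619 in dsUsh libraries, against 26196, 25830.4 and 28557 in dsEGFP libraries (log2 difference -1.11, SE 0.10), and Idgf2 differed by -1.45 (SE 0.17).

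Solute carriers changed in both directions, and ion channels passed at shares near those of all tested genes. Of 50 solute carrier genes tested (67 listed), 19 were higher and 7 lower, with a median of 0.31 that became -0.03 under quantile normalisation. The higher count was 12 without dsEGFP replicate 2 or dsUsh replicate 3, and the lower count fell to 4, 4 and 3 without dsEGFP replicate 2, dsEGFP replicate 3 and dsUsh replicate 3. The sodium-phosphate cotransporters Picot and NaPi-T rose together. Picot had 875, 4396 and 1187 normalised counts in dsUsh libraries, against 9.05, 3.12 and 3.2 in dsEGFP libraries, and NaPi-T had 664, 2500.1 and 1081 in dsUsh libraries, against 45.2, 60.4 and 49.1 in dsEGFP libraries. CG1139, on the same list, was at least 131-fold higher. Among ion channels (71 tested of 178 listed) 10 (14.1%) were higher and 9 (12.7%) lower, beside 17.4% and 11.1% of all tested genes. Their median of 0.15 became -0.41 under quantile normalisation, so that no common direction was seen. The higher count was 6, 5 and 6 without dsEGFP replicate 3, dsUsh replicate 2 and dsUsh replicate 3, and the lower count 4 without dsEGFP replicate 2. ClC-c, an endosomal chloride transporter, had 11160.5, 12696 and 13872 in dsUsh libraries, against 3512, 3792 and 4033 in dsEGFP libraries (log2 difference 1.73, SE 0.06). The inward rectifier potassium channels parted, since Irk1 was higher (1.91, SE 0.15) and Irk3 lower (-1.05, SE 0.12). With the block dropped, the lower counts of solute carriers and ion channels were 2 and 2.

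Gap junction genes of the innexin family moved strongly for a small group. Inx2 had 2733, 3978 and 2745 normalised counts in dsUsh libraries, against 185, 66.7 and 46.9 in dsEGFP libraries, a log2 difference of 5.20 (SE 0.37, adjusted p = 3.02e-05, limma). Its partner ogre, also called Inx1, had 1966, 1548 and 1507 in dsUsh libraries, against 376, 196 and 124 in dsEGFP libraries (2.98, SE 0.21), and Inx7 had 57.3, 141 and 38.4 in dsUsh libraries, against 6.33, 4.17 and 1.07 in dsEGFP libraries. At these dsEGFP values Inx7 could pass the filter on the mean only through the other groups. The germline innexin zpg was lower (-0.75, SE 0.13, call lost in 6 alternatives). In all, 6 of 16 aquaporin, gap junction and pump genes tested (23 listed) were higher and 1 was lower. Of 32 genes of metal handling tested (41 listed), 8 were higher and 1 was lower. Without dsEGFP replicate 2 or dsUsh replicate 3 the higher count was 5, and quantile normalisation gave 5 higher and 3 lower. Tsf3, a transferrin, had 1295, 2723 and 1640.2 in dsUsh libraries, against 98.6, 50.006 and 54.4 in dsEGFP libraries. Mvl, a metal transporter of the NRAMP family, had 3461, 4363 and 3900.4 in dsUsh libraries, against 1342, 902 and 1010.0 in dsEGFP libraries, and the zinc transporter ZnT77C rose by 2.19 on the log2 scale (SE 0.19).

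Lysosomal and endocytic genes shifted upward by small steps in many members. Of 59 autophagy and lysosome genes tested (74 listed), 22 were higher and 3 lower, with a median of 0.33, and 1 was lower without dsEGFP replicate 1, dsEGFP replicate 3, dsUsh replicate 2 or dsUsh replicate 3. Of 37 genes of endocytosis (39 listed), 16 were higher and 1 lower (median 0.34), and of 59 SNARE, exocyst and Rab genes (60 listed), 20 were higher and 2 lower (median 0.28). The proton pump that acidifies these organelles, the vacuolar ATPase, had 9 higher and no lower genes among 23 tested (33 listed), with a median of 0.44. These higher counts were 14, 9, 10 and 3 in the same order without dsEGFP replicate 2, the endocytosis and SNARE counts were 10 and 13 without dsUsh replicate 2, and the vacuolar ATPase count was 5 without dsMi-2 replicate 3. The thiol reductase GILT2 had 718, 1543 and 871 normalised counts in dsUsh libraries, against 3.62, 1.04 and 5.33 in dsEGFP libraries, and shi, the dynamin that cuts endocytic vesicles from the membrane, had 14629.7, 28189 and 19596 in dsUsh libraries, against 5115, 4533 and 5097 in dsEGFP libraries (log2 difference 2.03, SE 0.20). The lipophorin receptor LpR1 had 206, 101 and 224 in dsUsh libraries, against 7.24, 1.04 and 4.27 in dsEGFP libraries. At their dsEGFP values GILT2 and LpR1 could pass the filter on the mean only through the other groups. The vacuolar ATPase subunit genes Vha13 and VhaM8.9 rose by 0.78 and 0.68 on the log2 scale, both without overlap of the groups. Rab14 was higher (0.98, SE 0.08), and Rab23 was lower (-1.85, SE 0.18). The lysosomal hexosaminidase Hexo2 fell against the direction of its list, with 2855, 1542 and 2149 in dsUsh libraries, against 6793, 7222 and 6215 in dsEGFP libraries. Dropping the replicate block left 9 higher endocytosis genes and 11 higher SNARE, exocyst and Rab genes, and 1 lower autophagy and lysosome gene.

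The secretory pathway did not share this shift. Of 55 genes of vesicle budding and translocation into the endoplasmic reticulum tested (57 listed), 2 were higher and none was lower, with a median of 0.02 that was -0.12 under quantile normalisation. Of 31 genes of the unfolded protein response tested (32 listed), 2 were higher and 3 lower, among them PEK, a stress kinase that slows translation (-0.57, SE 0.07). The lower count was 1 without dsEGFP replicate 2, dsUsh replicate 3 or any dsMi-2 library. Of 35 proteasome genes tested (49 listed), 1 was higher and 1 lower. Hsp26 had 363, 826 and 499 normalised counts in dsUsh libraries, against 1045, 3170.2 and 2227 in dsEGFP libraries (log2 difference -1.87, SE 0.21), and Hsp23 differed by -2.19 (SE 0.43, call lost in 5 alternatives). In all, 5 of 33 heat shock and chaperone genes tested (43 listed) were lower and 1, the J-domain protein mrj, was higher, with 3 lower when dsEGFP replicate 2, dsUsh replicate 2 or any of the dsMi-2 libraries was left out. Copies of Hsp70 were among the lower genes and share near-identical sequence. With no replicate block 1 gene of the unfolded protein response was lower and 1 higher, and 2 chaperone genes were lower.

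More genes of adhesion and cytoskeleton were higher than lower, whereas more of the basement membrane were lower than higher. Of 19 integrin and focal adhesion genes tested (19 listed), 11 were higher and 2 lower, with a median of 0.40. The integrin alpha subunit if had 844, 366 and 613 normalised counts in dsUsh libraries, against 29, 8.33 and 16 in dsEGFP libraries, a log2 difference of 5.10 (SE 0.16, adjusted p = 1.81e-06, limma). Here dsUsh replicate 2 was the lowest of the dsUsh libraries. ItgaPS4 and Itgbn, subunits known from lamellocytes and from phagocytosis, rose by 4.04 and 3.53 on the log2 scale. Of the lamellocyte markers 5 of 7 tested were higher, with 173668 to 205250 summed counts in dsUsh libraries, against 76206 to 82566 in dsEGFP libraries. These were ItgaPS4, mys, Itgbn, cher and betaTub60D, all of them integrin, actin or tubulin genes. The lamellocyte markers PPO3 and Mmp1 did not pass. PPO3 had 550, 641 and 443 in dsUsh libraries, against 453, 477 and 369 in dsEGFP libraries. The summed counts lay mostly in the abundant genes mys, cher, betaTub60D and Mmp1. The listed marker atilla was not among the 7 tested, with 6.95, 19.3 and 5.34 in dsUsh libraries, against 0, 0 and 0 in dsEGFP libraries. The part of lamellocyte markers in the result was not tested. Of 65 actin regulators tested (67 listed), 29 were higher and 6 lower, with a median of 0.24, and the higher count was 18 without dsEGFP replicate 2 and 19 without dsUsh replicate 2. The lower count of 6 was between 2 and 3 when any dsEGFP library, dsUsh replicate 2 or dsUsh replicate 3 was left out. The filamin gene cher had 38402, 42248 and 36623 in dsUsh libraries, against 15483, 11358 and 8861 in dsEGFP libraries (1.75, SE 0.13), and the spectraplakin gene shot had 9725, 9184 and 8423 in dsUsh libraries, against 3946, 2393 and 1766 in dsEGFP libraries (1.83, SE 0.16). The fit with no replicate block had 16 higher actin genes, and neither lower integrin gene passed in it.

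Of 41 microtubule genes tested (45 listed), 14 were higher and 4 lower, with a median of 0.23. The higher count was between 7 and 9 whenever any library but dsMi-2 replicate 1 was left out, and the lower count was between 1 and 2 whenever any library but dsEGFP replicate 1 was left out. The tubulin isotype betaTub97EF had 1541, 2094 and 1536 normalised counts in dsUsh libraries, against 18.1, 9.38 and 7.47 in dsEGFP libraries, and betaTub60D had 41920.2, 50862 and 41757 in dsUsh libraries, against 12692, 11352 and 11289 in dsEGFP libraries. The difference was 7.17 (SE 0.31) for the first gene and 1.92 (SE 0.11) for the second. The general isotype betaTub56D was lower (-0.51, SE 0.12), a call lost in 13 alternatives. At cell contacts, the polarity gene baz, encoding the fly Par-3 protein, had 5962, 7875 and 7718 in dsUsh libraries, against 1709, 1469 and 1697 in dsEGFP libraries, and the adhesion molecule Nrg had 4069, 5746 and 3473 in dsUsh libraries, against 1016, 877 and 619 in dsEGFP libraries. Fas2, another adhesion molecule of the immunoglobulin family, had 2228, 2375 and 2373 in dsUsh libraries, against 276, 82.3 and 128 in dsEGFP libraries. Of 25 sarcomere and muscle genes tested (34 listed), 6 were higher and 1 was lower, with Zasp52 and sls, the fly titin, higher by 2.06 and 2.07. The microtubule counts without the replicate block were 7 higher and 2 lower.

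In the basement membrane, the sheet of laminin and collagen that plasmatocytes secrete, 9 of 19 tested genes (21 listed) were lower and 3 higher, with a median of -0.51. The laminin gamma chain gene LanB2 had 2712, 713 and 1774 normalised counts in dsUsh libraries, against 20089, 15303 and 17626 in dsEGFP libraries, a log2 difference of -3.54 (SE 0.28, adjusted p = 5.26e-05, limma). LanB1, the beta chain, had 12706, 4913 and 10194 in dsUsh libraries, against 40605, 36493 and 42282 in dsEGFP libraries (-2.21, SE 0.21). For the collagen IV gene Col4a1 the values were 142, 68.2 and 74.7 in dsUsh libraries, against 597, 450.1 and 314 in dsEGFP libraries, and for SPARC, a collagen-binding protein, 332, 204.55 and 214 in dsUsh libraries, against 1931, 4009 and 2844 in dsEGFP libraries. The higher genes included matrix proteases. AdamTS-A had 5457, 9722 and 5413 in dsUsh libraries, against 235, 131 and 100.3 in dsEGFP libraries (5.49, SE 0.33), and Mmp2 had 629, 1410.3 and 687 in dsUsh libraries, against 92.3, 62.5 and 34.1 in dsEGFP libraries.

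Signalling pathways changed in a few members each. In the Notch pathway 7 of 21 tested genes (30 listed) were higher and 4 lower, and the median of 0.08 turned to -0.15 under quantile normalisation. The receptor N had 537, 254.55 and 234 normalised counts in dsUsh libraries, against 2216, 1565 and 1156 in dsEGFP libraries (log2 difference -2.32, SE 0.16, adjusted p = 2.93e-05, limma), and the ligand Ser had 581, 300.0 and 599 in dsUsh libraries, against 1396, 1420.0 and 2446 in dsEGFP libraries, so that receptor and ligand were both lower. The glycosyltransferase fng, which alters the response of Notch to its ligands, went the other way, with 644, 1724 and 875 in dsUsh libraries, against 47, 45.8 and 39.5 in dsEGFP libraries (4.46, SE 0.25). The coactivator mam and the gamma-secretase genes Psn and aph-1 were also higher (2.05, 0.58 and 0.55), and the Notch-modifying enzymes rumi and O-fut1 were lower (-0.99 and -0.75). The count of higher genes was 4 without the replicate block.

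In the BMP pathway the receptor genes tkv and wit were higher. tkv had 2652, 3734 and 3287 normalised counts in dsUsh libraries, against 743, 682 and 955 in dsEGFP libraries (2.02, SE 0.13), whereas the receptor put and the transducer Mad were lower (-0.42 and -0.59), the call for put being lost in 1 alternative. Of the 20 genes tested (26 listed), 3 were higher and 3 lower. In the stress kinase pathways 8 of 26 tested genes (27 listed) were higher and 1 lower, with a median of 0.18. Both subunits of the transcription factor AP-1 rose. kay, the Fos protein, had 39462, 49524 and 41363 in dsUsh libraries, against 12101, 23016 and 23291 in dsEGFP libraries (1.21, SE 0.16), and Jra, the Jun protein, had 4703, 5688 and 4290.0 in dsUsh libraries, against 2354, 2686 and 2259 in dsEGFP libraries (1.00, SE 0.08). The kinase gene p38c rose by 1.62 on the log2 scale (SE 0.07), and the adaptor gene Traf4 was lower (-1.38, SE 0.14).

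In the Hippo pathway, which restrains growth, 6 of 18 tested genes (21 listed) were higher and none was lower (median 0.12). The kinase gene wts had 2210.4, 2243 and 2120.4 normalised counts in dsUsh libraries, against 1195, 1203 and 1313 in dsEGFP libraries (0.83, SE 0.07), and yki, the coactivator it inhibits, rose as well (0.57, SE 0.07). In EGFR, FGFR and Pvr signalling 12 of 39 tested genes (44 listed) were higher and 5 lower. The higher count was 6 without dsEGFP replicate 2 and 7 without dsUsh replicate 3, and the lower count was 3 without each library other than dsEGFP replicate 1 and dsUsh replicate 1. The secreted EGFR inhibitor aos had 5146, 4400.1 and 4676 in dsUsh libraries, against 10083, 14805 and 19552 in dsEGFP libraries (-1.59, SE 0.19), and kek1, a transmembrane inhibitor of the same receptor, had 945, 428 and 648 in dsUsh libraries, against 2989, 2098 and 2907 in dsEGFP libraries (-2.04, SE 0.14). In insulin signalling, 6 of 37 tested genes (45 listed) were higher and 4 lower. The insulin-binding antagonist ImpL2 had 9624, 13908 and 7001 in dsUsh libraries, against 24070.4, 42395 and 63177 in dsEGFP libraries (-2.03, SE 0.30), and Pi3K21B, the regulatory subunit of phosphoinositide 3-kinase, had 9251, 11058 and 15222 in dsUsh libraries, against 3030.2, 2829.5 and 4324 in dsEGFP libraries (1.80, SE 0.09). The EGFR, FGFR and Pvr list had 5 higher and 3 lower genes without the replicate block.

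Few genes of JAK/STAT signalling passed, 1 higher and 1 lower of 14 tested (17 listed), with the cytokine gene upd3 higher (1.46, SE 0.18). In guidance, comm2, a relative of the Robo-sorting protein Commissureless, had 1129, 1106 and 1128 normalised counts in dsUsh libraries, against 18.1, 29.2 and 23.5 in dsEGFP libraries, a log2 difference of 5.54 (SE 0.47). The receptor unc-5 was lower (-1.17, SE 0.08). Among G protein-coupled receptors 12 of 39 tested (94 listed) were higher and 3 lower, with 6, 7 and 7 higher without dsEGFP replicate 2, dsUsh replicate 2 and dsUsh replicate 3, and 0, 1 and 1 lower without dsEGFP replicate 2, dsEGFP replicate 3 and dsUsh replicate 3. Dh31-R, the receptor of a gut and brain peptide hormone, was at least 78.8-fold higher, or at least 45.8-fold without dsUsh replicate 2. In the ecdysone response, 8 of 23 tested genes (41 listed) were higher and 3 lower (median 0.25). The ecdysone importer Oatp74D had 1589, 1507 and 1558 in dsUsh libraries, against 518, 252 and 453 in dsEGFP libraries, and Eip93F was lower (-1.89, SE 0.23). Dropping the replicate block left 0 lower receptor genes of the G protein-coupled class and 5 higher genes of the ecdysone response.

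Transcription factor genes that rose included factors of gut and epithelia. peb, the zinc finger protein Hindsight, had 214, 256 and 224 normalised counts in dsUsh libraries, against 6.33, 13.5 and 6.4 in dsEGFP libraries (4.65, SE 0.25). Sox14, an ecdysone-responsive factor, had 3053, 4792 and 3052 in dsUsh libraries, against 771, 871 and 1015 in dsEGFP libraries (2.01, SE 0.14), and the lipid-sensing nuclear receptor gene Hnf4 had 4212, 5752 and 5245 in dsUsh libraries, against 1782, 2051 and 2814 in dsEGFP libraries (1.21, SE 0.10). Of 35 forkhead, Sox, ETS, zinc finger and T-box genes tested (74 listed), 9 were higher and 3 lower, or 1 lower without dsEGFP replicate 2. Of 18 homeobox genes tested (80 listed), 4 were higher and none was lower, and 2 were higher without dsEGFP replicate 2. Among the GATA factors, pnr was higher (0.62, SE 0.08) and srp lower (-0.49, SE 0.11), the call for srp being lost in 10 alternatives, among them the fit without the replicate block.

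Genes of cell death and immunity moved in both directions. The death activator gene rpr had 3889, 5597 and 4068 normalised counts in dsUsh libraries, against 375, 108 and 178 in dsEGFP libraries (4.52, SE 0.36, adjusted p = 5.05e-05, limma). Buffy, a Bcl-2 family protein, rose as well (5.04, SE 0.72). Of the effector caspases, Dcp-1 was higher (1.08, SE 0.12) and Drice lower (-0.59, SE 0.06). In all, 8 of 25 apoptosis genes tested (31 listed) were higher and 2 lower, with 4, 5, 5 and 4 higher without dsEGFP replicate 2, dsEGFP replicate 3, dsUsh replicate 2 and dsUsh replicate 3. In the Toll and IMD pathways 17 of 44 tested genes (56 listed) were higher and 2 lower, with a median of 0.30, and the higher count was 7, 11 and 9 without dsEGFP replicate 2, dsEGFP replicate 3 and dsUsh replicate 3. The recognition protease genes upstream of Toll, modSP and grass, were higher. modSP had 819, 616 and 652 in dsUsh libraries, against 9.05, 10.4 and 2.13 in dsEGFP libraries (6.60, SE 0.39). By contrast spz, the ligand they help to activate, had 1216, 651 and 883 in dsUsh libraries, against 5605, 2294 and 2829.5 in dsEGFP libraries (-1.90, SE 0.12). Of the Toll and IMD genes, 11 were higher without the replicate block.

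Metabolic genes separated by route. Mitochondrial fatty acid oxidation had 23 higher and no lower genes among 31 tested (32 listed), with a median of 0.97. Peroxisomal genes had 10 higher and none lower of 22 tested (23 listed), with a median of 0.40, and 6 were higher without dsEGFP replicate 2. In the TCA cycle 11 of 27 tested genes (32 listed) were higher and 1 lower, with a median of 0.34. The higher count was 6, 6, 7 and 6 without dsEGFP replicate 1, dsEGFP replicate 2, dsUsh replicate 1 and dsUsh replicate 2. Pyruvate carboxylase (PCB), which feeds oxaloacetate into the cycle, had 4620.5, 5608 and 4813 normalised counts in dsUsh libraries, against 1776, 1222 and 1376 in dsEGFP libraries (1.79, SE 0.15). The NADPH-producing enzyme Idh had 18189, 22681 and 18362 in dsUsh libraries, against 6914, 5524 and 5198 in dsEGFP libraries (1.75, SE 0.11, adjusted p = 1.92e-05, limma), and Men-b, a malic enzyme, rose by 1.06 (SE 0.08). In the respiratory chain 18 of 73 tested genes (86 listed) were higher and 1, ND-20 (-1.12, SE 0.10), was lower, with a median of 0.22. That higher count was 2 without the replicate block, between 3 and 10 whenever any library was left out, and 8 after upper-quartile scaling. Quantile normalisation gave 4 higher and 5 lower genes of the respiratory chain. The TCA cycle count was 6 without the replicate block.

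Glycolysis genes went down in part, and genes of carbohydrate storage and sugar transport went both ways. Of 23 glycolysis and pentose phosphate genes tested (26 listed), 5 were lower and 2 higher, with a median of -0.28, and 2 were lower without dsEGFP replicate 2, dsEGFP replicate 3, dsUsh replicate 2 or dsUsh replicate 3, but 11 without dsEGFP replicate 1 and 9 without dsUsh replicate 1. Pfk, the phosphofructokinase that commits sugar to glycolysis, had 1276, 1206 and 1141 normalised counts in dsUsh libraries, against 2303, 5166 and 6159 in dsEGFP libraries (-1.79, SE 0.26, adjusted p = 0.000968, limma). As for MFS3, dsEGFP replicate 1 was the lowest control library, and no groups overlapped. Of 23 carbohydrate storage and sugar transport genes tested (37 listed), 7 were higher and 5 lower, with a median of 0.31. Silent genes made up 3 of the 7, and the median was 0.20 with silent genes at their lower limit and -0.03 under quantile normalisation. Glycogen synthase (GlyS) had 4921, 3739 and 4623 in dsUsh libraries, against 8217, 9335 and 11376 in dsEGFP libraries (-1.12, SE 0.11), and the glycogen primer gene Glycogenin had 12.2, 12.5 and 18.1 in dsUsh libraries, against 75.1, 95.8 and 121 in dsEGFP libraries (-2.68, SE 0.16). The higher glycolysis genes were Hex-A, a hexokinase, and Pfrx, which makes and removes an activator of Pfk, with 1.31 (SE 0.20) and 1.64 (SE 0.16).

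Lipid genes outside oxidation also changed. Seipin, a protein of lipid droplet assembly, had 22199, 68734 and 32307 normalised counts in dsUsh libraries, against 915, 1011 and 1006 in dsEGFP libraries (5.23, SE 0.26, adjusted p = 7.13e-06, limma). mdy, the acyltransferase of triglyceride synthesis, had 2569, 4294 and 3813 in dsUsh libraries, against 492, 406 and 562 in dsEGFP libraries (2.85, SE 0.17). Of 18 lipid droplet and lipoprotein genes tested (23 listed), 8 were higher and 1 lower (median 0.66). Of 25 sphingolipid and sterol genes tested (30 listed), 12 were higher and 2 lower (median 0.38), and 7 were higher without dsEGFP replicate 1 or dsEGFP replicate 2. The ceramide-forming desaturase gene ifc had 18880.4, 19821 and 22250.2 in dsUsh libraries, against 7831, 7532 and 9511 in dsEGFP libraries (1.30, SE 0.08). In phospholipid synthesis Pis, for phosphatidylinositol, was higher (1.21, SE 0.07), and Pect, for phosphatidylethanolamine, was lower, with 6516, 6113 and 6446 in dsUsh libraries, against 12585, 12100.5 and 14042 in dsEGFP libraries (-1.02, SE 0.07). Without the replicate block 7 sphingolipid and sterol genes were higher and 0 lower.

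Genes of nitrogen and nucleotide metabolism changed in both directions. Both glutamine synthetase genes rose, Gs2 with 935, 1709 and 1299.8 normalised counts in dsUsh libraries, against 57.9, 60.4 and 58.7 in dsEGFP libraries (4.41, SE 0.16, adjusted p = 2.78e-06, limma), and Gs1 with 4418, 12879 and 8066 in dsUsh libraries, against 616, 778 and 882 in dsEGFP libraries (3.36, SE 0.24). Eip55E, a cystathionine gamma-lyase that makes cysteine, had 38171, 69698 and 34367 in dsUsh libraries, against 2650.2, 2073 and 1993 in dsEGFP libraries (4.34, SE 0.23). Among 39 amino acid genes tested (49 listed), 11 were higher and 8 lower, the lower count being between 2 and 5 when any library but dsUsh replicate 1 was left out. Enzymes that remove adenosine and AMP rose. The secreted adenosine deaminase gene Adgf-A had 26376, 22194 and 24921 in dsUsh libraries, against 3591, 2029 and 1511 in dsEGFP libraries (3.46, SE 0.19), and AMPdeam, the AMP deaminase, had 11322, 10743 and 10597 in dsUsh libraries, against 3217, 2094 and 1875 in dsEGFP libraries (2.22, SE 0.13). By contrast ade3, an enzyme of purine synthesis, was lower, with 2486, 1831 and 1940.1 in dsUsh libraries, against 3773, 4151 and 4087 in dsEGFP libraries (-0.95, SE 0.11). The lower count of amino acid genes was 4 without the replicate block.

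**Figure D4:**
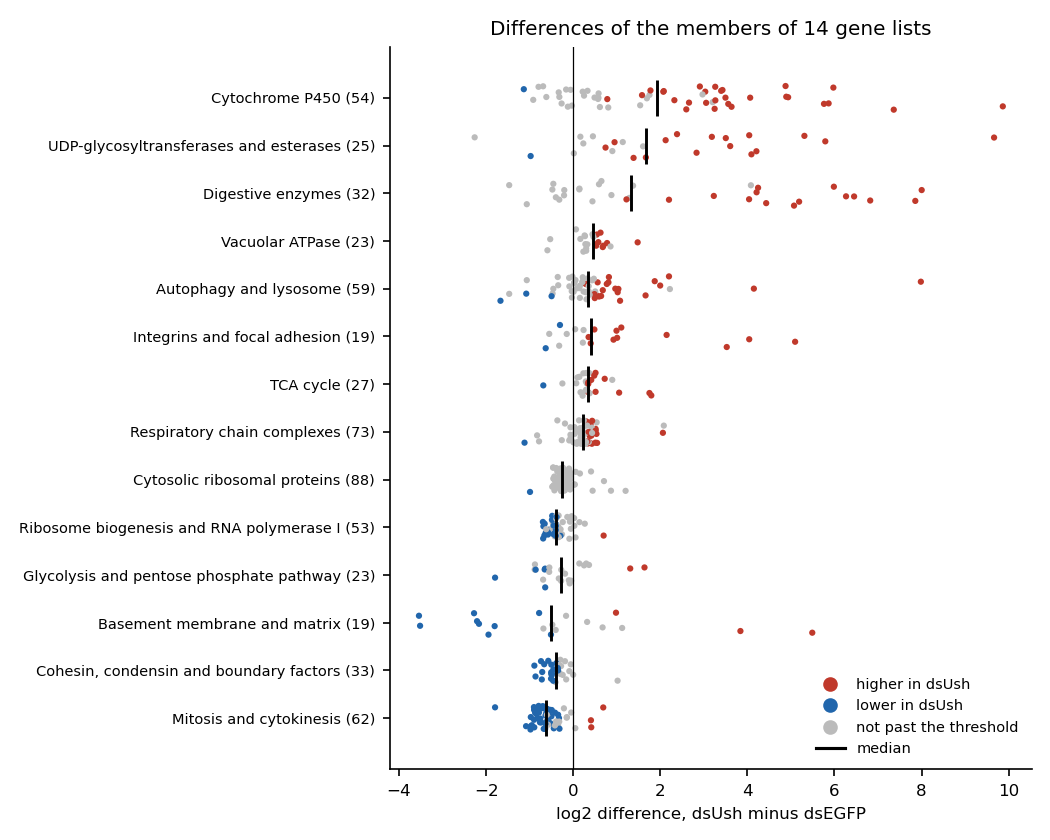
Log2 difference, dsUsh minus dsEGFP (x axis), of every tested member of 14 gene lists, with the number tested in parentheses, colours for the call and a black line at the median. Cytochrome P450 and glycosyltransferase lists spread far to the right, with medians of 1.92 and 1.67, as does the digestive list, of whose 32 tested members 12 were silent in dsEGFP libraries, whereas mitosis and condensin lists form narrow groups left of 0, with medians of -0.62 and -0.40.

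Genes of chromosomes and of cell division were lower by small amounts in many members. Of 62 mitosis and cytokinesis genes tested (63 listed), 47 were lower and 3 higher, with a median of -0.62, and 28 were lower without dsEGFP replicate 2. In DNA replication 24 of 45 (46 listed) were lower and none was higher, with a median of -0.40. The lower count was 8 without dsEGFP replicate 2 and 14 or 15 without dsUsh replicate 2, dsUsh replicate 3 or any of the dsMi-2 libraries. Of 33 cohesin, condensin and boundary genes (33 listed), 19 were lower and none was higher (median -0.40), and 8 were lower without dsEGFP replicate 2. The condensin genes Cap-G and Cap-D2, which compact chromosomes in mitosis, showed the size of these falls. Cap-G had 1656, 1203 and 1346 normalised counts in dsUsh libraries, against 2403, 2592 and 2751 in dsEGFP libraries (-0.89, SE 0.11, adjusted p = 0.000532, limma), and Cap-D2 had 1170.3, 882 and 865 in dsUsh libraries, against 1739, 1911 and 1626 in dsEGFP libraries (-0.87, SE 0.10). The largest fall of the group was that of stg, the Cdc25 phosphatase that triggers entry into mitosis, with 1728, 1858 and 1303 in dsUsh libraries, against 4703, 7431 and 4995 in dsEGFP libraries (-1.79, SE 0.15). fzr, which directs mitotic cyclins to degradation after mitosis, was higher (0.69, SE 0.09). Without the replicate block 13 replication genes were lower, and 1 mitosis gene was higher.

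Other chromatin genes were lower in part. Of 42 Polycomb and trithorax genes tested (42 listed), 13 were lower and none was higher (median -0.24). Of 48 histone, heterochromatin and packaging genes (50 listed), 13 were lower and 1 higher (median -0.27), and of 28 NuRD and other remodeller genes (28 listed), 8 were lower and none was higher (median -0.30). These lower counts were 4, 7 and 1 without dsEGFP replicate 2, 6, 7 and 5 without dsEGFP replicate 3, and 9, 7 and 2 without dsUsh replicate 2 in the same order. Without dsUsh replicate 3 the Polycomb and remodeller counts were 5 and 3, and the remodeller count was 4 without dsEGFP replicate 1 or any dsMi-2 library. The histone variant gene His2Av had 6148, 5891 and 5597 normalised counts in dsUsh libraries, against 10070.4, 12413 and 11688 in dsEGFP libraries (-0.95, SE 0.08). The DNA-bending protein HmgD and the SWI/SNF subunit Snr1 differed by -0.77 and -0.61. In DNA repair 10 of 52 genes tested (53 listed) were lower and 1 was higher, and the lower count was between 3 and 5 when any library but dsUsh replicate 1 was left out. The mismatch repair gene Msh6 was lower (-0.89, SE 0.09). The higher gene was tefu, the damage-sensing kinase ATM, with 8150.5, 6439 and 9351 in dsUsh libraries, against 2044, 1673 and 2799.6 in dsEGFP libraries (1.89, SE 0.07, adjusted p = 2.78e-06, limma). Dropping the replicate block gave 7, 6 and 3 lower genes in the Polycomb, histone and remodeller lists and 5 in DNA repair.

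Genes of ribosome assembly and RNA processing were lower in part, by small amounts. Of 53 ribosome biogenesis genes tested (53 listed), 23 were lower and 1 higher, with a median of -0.39. However, none of them passed in either direction without the replicate block, and between 3 and 15 were lower when any library but dsEGFP replicate 3 was left out. Nop56, a core protein of box C/D small nucleolar particles, had 6319, 5969 and 4946 normalised counts in dsUsh libraries, against 10007, 10388 and 7099.9 in dsEGFP libraries (-0.66, SE 0.09). Its call was lost without the replicate block. Mitochondrial ribosomal proteins had 14 lower and no higher genes of 74 tested (75 listed), with a median of -0.23, and between 4 and 9 when any library but dsUsh replicate 1 was left out. mRpS10 had 575, 475 and 476 in dsUsh libraries, against 1003, 965 and 734 in dsEGFP libraries (-0.82, SE 0.09). Splicing factors had 12 lower and 3 higher genes of 63 (66 listed), with a median of -0.22, and 3, 7, 19 and 7 lower without dsEGFP replicate 2, dsEGFP replicate 3, dsUsh replicate 1 and dsUsh replicate 2. The higher ones included the splicing regulators mbl and how, of muscle and of several embryonic tissues (1.01 and 0.77). Of 35 small RNA pathway genes (37 listed), 8 were lower and 2 higher. The piRNA nuclease gene zuc was lower (-1.05, SE 0.14), and Dcr-2, which cuts double-stranded RNA into small interfering RNA, was higher, with 5759, 5582 and 6494 in dsUsh libraries, against 3305, 3208 and 4209 in dsEGFP libraries (0.74, SE 0.06). The lower count of small RNA genes was 2, 4, 5 and 5 without dsEGFP replicate 2, dsEGFP replicate 3, dsUsh replicate 2 and dsUsh replicate 3. Without the replicate block the lower counts were 5 for mitochondrial ribosomal proteins, 3 for splicing factors and 5 for small RNA genes.

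Several large groups held few genes past the threshold in the counts as deposited, but more of them were lower after quantile normalisation. Of 88 cytosolic ribosomal protein genes tested (92 listed), 1 passed, the paralog RpS19b, which was lower (-0.99, SE 0.15). The median of this list was nevertheless -0.25, and 9 of the 88 had a positive difference. Quantile normalisation gave 10 lower genes in this list, 22 among translation factors, 13 among aminoacyl-tRNA synthetases and 76 among long non-coding RNA genes. Of 51 translation factors tested (58 listed), 2 were higher and 5 lower, with 1 or 2 lower when any library but dsEGFP replicate 1 and dsUsh replicate 1 was left out. Of 37 aminoacyl-tRNA synthetases (37 listed), none was higher and 3 were lower, with 7 lower without dsUsh replicate 1 and 1 when any other library but dsEGFP replicate 1 was left out. Of 379 long non-coding RNA genes tested (2626 listed), 20 were higher and 21 lower, with 10, 12, 10 and 11 higher without dsEGFP replicate 2, dsEGFP replicate 3, dsUsh replicate 2 and dsUsh replicate 3, and 9 lower without dsEGFP replicate 2. Both SUMO-activating subunit genes were lower, with log2 differences of -0.71 (SE 0.09) for Aos1 and -0.55 (SE 0.06) for Uba2, although the ubiquitin and SUMO list as a whole had 6 higher and 5 lower genes of 54 tested (56 listed), the lower count being 2 or 3 when any library but dsEGFP replicate 3 was left out. Without the replicate block the translation factors had 1 higher and 1 lower gene, the synthetases 1 lower, the ubiquitin and SUMO list 3 in each direction, and the long non-coding RNA genes 13 higher and 11 lower.

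The scaling of the libraries moved other lists too. Quantile normalisation gave 9 higher genes of endocytosis, 13 of the SNARE, exocyst and Rab list, 8 of the microtubule list, 6 of the TCA cycle, 7 of the sphingolipid and sterol list and 5 of the ecdysone response. It gave 22 lower genes of the histone and packaging list, 19 of the remodeller list, 18 of DNA repair, 31 of splicing, 22 mitochondrial ribosomal protein genes, 12 heat shock and chaperone genes, 12 solute carriers, 10 glycolysis and pentose phosphate genes and 7 of the secretory pathway. Upper-quartile scaling gave 9 higher microtubule genes and 13, 23 and 9 lower genes of the remodeller, splicing and glycolysis lists.

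Genes past the threshold were spread over all chromosome arms. The share of tested genes that were higher was 19.1% on X, 15.8% on 2L, 17.7% on 2R, 18.3% on 3L and 16.9% on 3R, and the share of lower genes was 8.05%, 12.0%, 11.5%, 10.4% and 12.8% in the same order. On the small chromosome 4, 5 of 77 tested genes were higher and 1 was lower. Higher genes often had higher neighbours. In the Release 6 gene order, 28.1% of the tested neighbours of a higher gene were higher too, or 28.5% when neighbours with overlapping spans were set aside, beside 17.4% of all genes placed in that order. The share for lower genes was 15.6%, or 16.3% without overlapping neighbours, beside 11.0%. Runs of at least 5 higher genes in succession numbered 14 and held 82 genes, whereas no run of lower genes reached 5. A run on X held CG4678, CG9676, CG9673, CG4653, CG9672, CG34325 and CG32572, a run on 2L the 3 genes Ugt36Ba, Ugt36Bb and Ugt36Bc with mdy beside them, a run on 2R the P450 genes Cyp6a9, Cyp6a20, Cyp6a21, Cyp6a8 and Cyp317a1, and a run on X the innexin genes ogre, Inx7 and Inx2. Members of such runs are often copies of each other, so they are not independent, and the runs were chosen for naming after their values were seen.

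The dsUsh libraries were also set against the dsMi-2 libraries, since Mi-2 is the ATPase of a complex that Ush is known to bind. Over all tested genes 3231 (35.4%) differed between dsUsh and dsMi-2. Of the 474 genes chosen by rule for naming, 353 did so, and 291 in the fit without the replicate block, but these genes were chosen on the dsUsh libraries. Against the same dsEGFP libraries, 1187 genes (13%) passed in the dsMi-2 libraries. For some genes the depletions stood on opposite sides of the controls. SPARC differed by -3.52 in dsUsh libraries and by 3.60 in dsMi-2 libraries (adjusted p = 0.000163, limma), Col4a1 by -2.28 and 2.20, Glycogenin by -2.68 and 3.73, and Tsp96F by -3.02 and 2.66. For other genes the difference of the dsMi-2 libraries did not pass, as for Cat (-0.17), Lamp1 (0.01) and LanB2 (0.19). The gene eater was lower in both (-4.80 and -3.77), and its difference between dsUsh and dsMi-2 did not pass (adjusted p = 0.0374, limma).

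A second table of 4 dsUsh-B and 4 dsEGFP libraries, in which the Ush-B isoform alone was targeted, had been normalised separately. In its own fit, without a block and at an adjusted p under 0.05, 1 of 9648 genes passed (0.0104%), and 447 of the 474 named genes were tested there. The gene that passed was comm2, with 215, 304, 179.6 and 230.4 normalised counts in dsUsh-B libraries, against 46.8, 23.9, 19.6 and 36.9 in the dsEGFP libraries of that table. The paper, which tested with DESeq2, reported many more transcripts past the same threshold, among them hemocyte-related genes. The count of 1 therefore belongs to this fit and is no measure of how many genes respond to Ush-B. The dsUsh and dsUsh-B differences were not compared with each other, because the tables differ in depth, scaling and number of libraries.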

How the data were processed

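RNA-seq libraries of S2 cells were prepared by the study from polyadenylated RNA with a stranded mRNA kit. Per the labels and methods, the authors aligned single-end reads with STAR, counted them per gene with featureCounts and scaled the counts with DESeq2. The submitters' processing notes name versions 1.6.2 and 2.11.40.2 of these tools, and the study's methods name other versions. Which genome build, gene models and strand setting they counted with is not given in the sources used here. The deposited values are normalised counts, that is read counts divided by size factors, a signal that is not whole. They were whole reads times 1 factor per library, which allowed the reads to be recovered (100% of values came out whole within 0.05 of a read). On these reads edgeR called 2532 genes. Tables of the authors' own comparisons (log2 fold changes, standard errors, p-values) were deposited as well and were not used.

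Values were compared with limma 3.58.1 in R 4.3.3 on log2(normalised count + 1), with a mean-variance trend, over all 9 libraries of the table and with the replicate number as a block, for genes with a mean of at least 5. P-values are two-sided and were adjusted by the Benjamini-Hochberg method across all 9132 genes, with a threshold of 0.01. Same-numbered libraries deviated together, with correlations of 0.27 to 0.69 in all 9 pairs, so the numbers pair the libraries. P-values measure the spread between these transfections of a single line. Alternatives used other filters, pseudocounts, scalings and designs, limma-voom, edgeR 4.0.16 and DESeq2 1.42.0 on the recovered reads, and left out each library. Gene names, biotypes, arms and neighbours came from a Release 6 RefSeq table.

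The gene lists and the rule for naming genes were chosen with earlier results of these data known. The rule took ush, the 15 largest rises and 15 largest falls among genes averaging 50 counts or more whose groups did not overlap, the 5 largest rises among silent genes, the 10 most abundant genes past the threshold, and up to 4 genes per list and direction with a mean of at least 20. It gave 474 genes.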

Additional observations from a re-analysis of the deposited data

How the results depend on the processing

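No gene past the threshold passed in the opposite direction in any alternative, and 1118 of the 2601 calls were kept in every alternative that gave a value. Without the replicate block 1567 genes passed, 442 of them lower, and with the 6 dsUsh and dsEGFP libraries alone 1334 passed, 1005 higher and 329 lower. Quantile normalisation gave 2073 lower genes, limma without a trend 597, and a threshold of 0.05 gave 4133 genes, 1873 of them lower. When a library was left out, between 1432 and 2340 genes passed, 1034 to 1424 of them higher and 398 to 916 lower, the lowest counts being those without dsEGFP replicate 2. For ush the log2 difference stayed between -0.36 and -0.26 when a library was left out. It was -0.31 but no longer past the threshold without the replicate block, with the 6 libraries alone, without a filter, without a trend and with edgeR, and -0.32 with DESeq2 without the block. Dropping the block ended the call of 138 of the 474 named genes, and 291 instead of 353 of them then differed between dsUsh and dsMi-2. In the dsUsh-B table the count of named genes past the threshold was 1, and 0 with a replicate block, but its numbers do not pair the libraries, since same-numbered libraries had correlations of 0.68, 0.84, -0.05 and 0.19 and not every library correlated best with its own number. The cause of these changes was not tested. A search of promoters for GATA motifs was not run. Precision is limited by 3 libraries per group and, for silent genes, by the floor of 3 reads.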
